A study of Mus musculus with 12 samples.

Results

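Transcripts of 10 genes of the transforming growth factor beta (TGF-beta) superfamily and its activin inhibitor were followed in the fetal mouse ovary: the bone morphogenetic protein (BMP) genes Bmp2, Bmp4, Bmp5 and Bmp7, the activin and inhibin subunit genes Inha, Inhba and Inhbb, the activin antagonist Fst, and the ligand genes Gdf9 and Amh. They were chosen by name from the deposited table of 54532 gene identifiers, and all 10 were present. The libraries came from female embryos of the strain Tg(Pou5f1-EGFP)2Mnn at E15.5 (embryonic day), in which a Pou5f1 (OCT4) promoter transgene marks germ cells with green fluorescent protein (GFP). The dams had been injected intraperitoneally once a day from E12.5 to E15.5, either with the glucocorticoid receptor agonist dexamethasone (dex) at 10 μg per g of body weight or with the saline vehicle. Ovaries freed of mesonephros were pooled over whole litters and sorted by flow cytometry into GFP+ germ cells and GFP– cells, so that the somatic fraction held every ovarian cell type without the reporter. There were 3 libraries in each of 4 groups: somatic cells after saline, somatic cells after dex, germ cells after saline and germ cells after dex. No group carried a change of genotype beyond the reporter that all 4 shared. In libraries of sorted pools, fewer cells of a type and less RNA per cell cannot be told apart.

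BMPs, activins and inhibins are secreted dimers. BMPs and activins bind pairs of type I and type II receptor kinases, which phosphorylate SMAD proteins, SMAD1, SMAD5 and SMAD9 in the BMP branch and SMAD2 and SMAD3 in the activin branch, and these act in the nucleus together with SMAD4. Activin A is a dimer of the INHBA beta subunit and activin B of INHBB, whereas a beta subunit paired with the INHA alpha subunit forms an inhibin, which opposes activin. Follistatin, the product of Fst, binds activins in the extracellular space and keeps them from their receptors. In the fetal ovary, Fst and Bmp2 are known as genes of the female somatic lineage that depend on Wnt4 signalling.

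The 12 libraries held between 14658503 and 18245507 counts, with 23206 to 26454 genes detected in each. Levels are given in CPM (the count divided by the library total after scaling between libraries, the usual depth-scaled unit), and 3 counts, taken as the floor of detection, came to between 0.164 and 0.205 CPM. All 8 germ cell markers on the list, among them Ddx4 and Dazl, were higher in the germ cell fraction, and all 10 pregranulosa markers, among them Foxl2, Wnt4 and Rspo1, were higher in the somatic fraction. In the saline somatic libraries the 8 germ cell markers summed to between 4.03 and 6.78 CPM, and in the dex somatic libraries to between 16.2 and 21.4 CPM. Among these germ cell markers Dazl alone passed the test in somatic cells after dex, with 5 of the 8 tested, and averaged 1.17 ± 0.193 CPM after saline and 12.8 ± 0.133 CPM after dex (SD, n = 3). The other 7 markers summed to between 2.83 and 5.42 CPM in the saline and between 3.33 and 8.81 CPM in the dex somatic libraries, with Pou5f1 and Dppa3 at 0 in all 3 of the latter. The 3 somatic dex libraries differed from each other in marker sums. In replicate 3 the 10 pregranulosa markers summed to 1265 CPM, against 940 and 997 CPM in the other libraries of the group. The 8 stromal markers summed to 19674 CPM there, against 25207 and 25681 CPM. Replicate 1 had the lowest macrophage marker sum, 42.8 CPM, against 118 and 112 CPM in replicates 2 and 3. The erythroid markers summed to 8188, 16515 and 3316 CPM in replicates 1, 2 and 3. Fkbp5, a textbook glucocorticoid receptor target, rose in the somatic libraries, where it averaged 129 CPM after saline and 317 CPM after dex (log2 fold change 1.29 ± 0.08, SE, edgeR adjusted p = 2.61e-07). In the germ cell libraries Fkbp5 stood at 72.1 to 86.6 CPM after saline and at 94.5 to 106 CPM after dex. Such a gap, with every dex library above every saline library, was seen for 7.96% of all genes tested in germ cells.

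The regions just upstream of the activin beta subunit genes are shown first, because Inhbb was the only one of the 10 genes to pass the test after dex and Inhba encodes the other beta subunit measured. Inhbb (ENSMUSG00000037035) lies on the minus strand at chr1:119415465-119422248 and Inhba (ENSMUSG00000041324) on the plus strand at chr13:16011851-16031621, in the GRCm38 coordinates of the count table. The 250 bases before each start, from RefSeq on GRCm38.p6, are printed 5′ to 3′ on the strand of the gene, with each CG dinucleotide in capitals. They cover chr1:119422249-119422498 for Inhbb and chr13:16011601-16011850 for Inhba.
Inhbb: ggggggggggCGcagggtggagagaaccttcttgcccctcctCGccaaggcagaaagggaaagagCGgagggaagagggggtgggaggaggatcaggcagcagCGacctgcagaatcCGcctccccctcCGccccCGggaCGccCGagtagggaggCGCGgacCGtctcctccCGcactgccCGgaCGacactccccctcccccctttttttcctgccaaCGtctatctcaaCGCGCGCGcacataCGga
Inhba: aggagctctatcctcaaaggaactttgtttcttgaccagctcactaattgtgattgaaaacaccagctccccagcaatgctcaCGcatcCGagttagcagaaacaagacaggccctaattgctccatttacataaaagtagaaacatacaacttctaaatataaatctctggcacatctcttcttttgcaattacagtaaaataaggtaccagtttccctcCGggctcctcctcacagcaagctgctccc
The Inhbb window held 21 CG dinucleotides at a GC content of 68%, and the Inhba window 3 at 43.2%. Over all 32851 windows of this length in the same table the median was 6 CG dinucleotides at 52.4% GC. The palindromic glucocorticoid receptor motif, searched on both strands as GNACANNNTGTNC, was in 0.387% of all windows, and the shorter receptor motif AGAACA, which may lie inside the first, in 16.1%. Windows were available for 5 of the 10 genes (Bmp4, Bmp5, Inha, Inhba and Inhbb), and neither motif matched in any of them. The Inha window, chr1:75507359-75507608, lies inside the gene as counted, which starts at 75507077, so the bases before that start were not searched.

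To ask which fraction held each signal, the saline libraries of the germ cell and somatic fractions were compared. The BMP and follistatin transcripts lay mainly in the somatic fraction, Amh was higher in germ cells, and Inhbb and Gdf9 were at similar levels in both. Of the 10 genes, 7 were lower in germ cells and 1 was higher at an adjusted p of at most 0.05. Such differences were common: 86.1% of all 17941 genes tested passed in this comparison, 43.1% higher and 42.9% lower in germ cells. The median log2 difference (germ minus somatic) was -2.62 over the 10 genes and 0.00 over all genes tested.

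**Figure D1:**
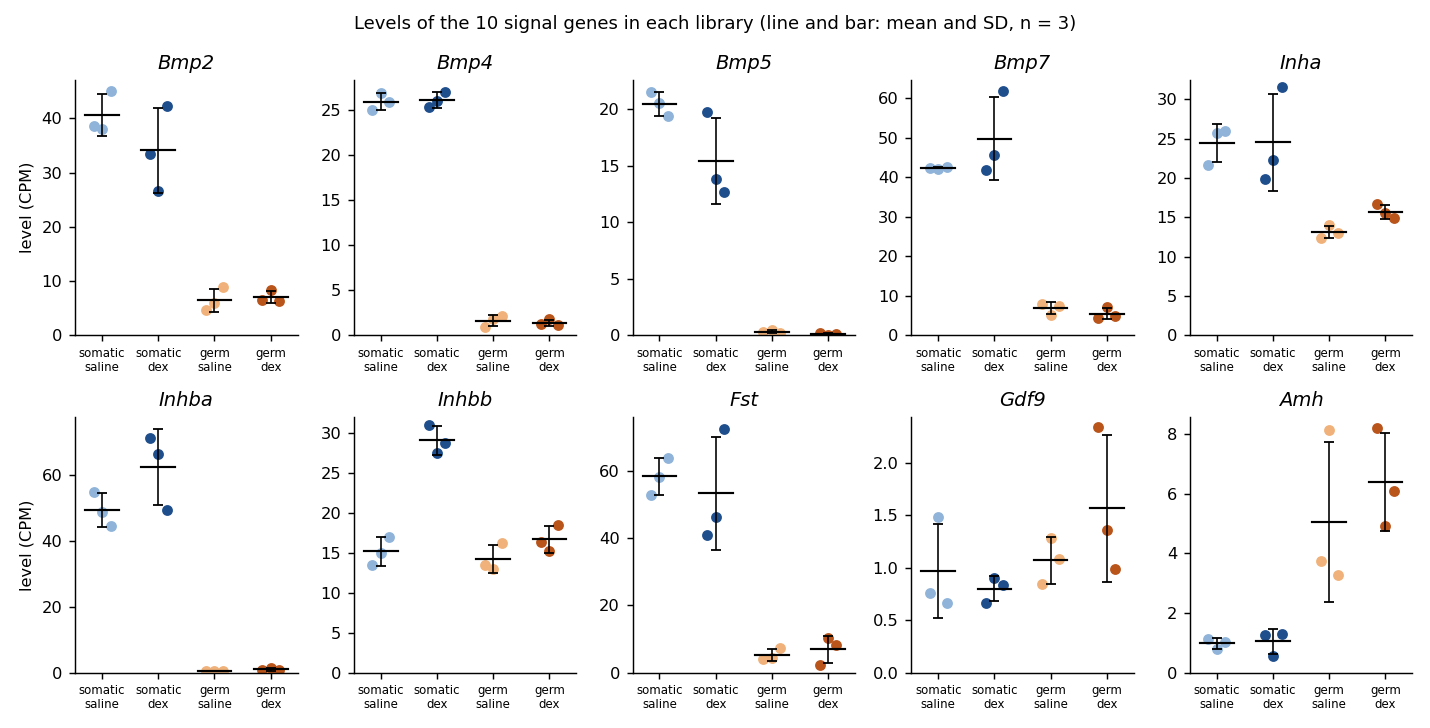
Level of each of the 10 genes in CPM (linear axes from 0) in every library of the 4 groups, with points for libraries and a line and bar for the mean and SD of 3 libraries. The 3 somatic dex libraries of Inhbb, between 27.4 and 31.0 CPM, lie above the other 9 libraries, and Bmp5 and Inhba are near 0 in germ cells.

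Among the ligands, Inhba, whose product forms activin A, showed the widest gap between the fractions. Inhba stood at 54.8, 48.7 and 44.7 CPM in the 3 somatic saline libraries and at 0.518, 0.525 and 0.515 CPM in the 3 germ cell saline libraries. All germ cell libraries lay far below all somatic libraries, by 6.54 ± 0.18 on the log2 scale (SE), or 93.0-fold (edgeR adjusted p = 7.79e-14). Its partner gene Inhbb, which encodes the subunit of activin B, did not share this distribution. Inhbb stood at 13.48, 14.98 and 17.01 CPM in somatic cells and at 13.46, 12.90 and 16.25 CPM in germ cells. These ranges overlapped, with a log2 difference of -0.08 ± 0.15 (SE, 95% interval -0.40 to 0.24, edgeR adjusted p = 0.612). Inha, the alpha subunit gene, lay between them. It stood at 21.7, 25.8 and 25.9 CPM in somatic cells and at 12.4, 14.0 and 13.0 CPM in germ cells. The germ cell libraries were all lower, with a log2 difference of -0.88 ± 0.13 (SE, edgeR adjusted p = 1.22e-05).

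The BMP genes were somatic to different degrees. Bmp5, a member of the subfamily of Bmp6 and Bmp7, stood at 21.5, 20.5 and 19.4 CPM in somatic cells and at 0.259, 0.467 and 0.229 CPM in germ cells, where each library held between 4 and 8 counts. The log2 difference was -5.96 ± 0.25 (SE, edgeR adjusted p = 7.69e-12). Bmp4, which is known for inducing the germ cell lineage earlier in the embryo, stood at 25.0, 26.9 and 25.9 CPM in somatic cells and at 0.906, 1.75 and 2.12 CPM in germ cells. Its germ cell level came to 6.14% of the somatic level, a log2 difference of -3.99 ± 0.21 (SE, edgeR adjusted p = 1.4e-10).

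Bmp2 and Bmp7 were less uneven than Bmp4 and Bmp5. Bmp2 stood at 38.5, 38.1 and 45.1 CPM in somatic cells and at 4.72, 5.89 and 8.81 CPM in germ cells, with a log2 difference of -2.63 ± 0.18 (SE, edgeR adjusted p = 2.57e-09). Bmp7 stood at 42.4, 42.2 and 42.5 CPM in somatic cells and at 8.02, 5.08 and 7.44 CPM in germ cells, with a log2 difference of -2.62 ± 0.15 (SE, edgeR adjusted p = 2.3e-10). The germ cell means of both genes came to 16.0% and 16.2% of their somatic means. Fst followed the same order of fractions. It stood at 53.0, 58.4 and 63.8 CPM in somatic cells and at 4.14, 4.44 and 7.44 CPM in germ cells, with a log2 difference of -3.43 ± 0.17 (SE, edgeR adjusted p = 7.09e-11).

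Gdf9 was low in both fractions, and Amh was low in somatic cells. Gdf9, the oocyte ligand needed later for follicle growth, stood at 0.841, 1.28 and 1.09 CPM in germ cells and at 0.756, 1.48 and 0.668 CPM in somatic cells. The ranges overlapped, and the log2 difference of 0.16 ± 0.43 (SE, 95% interval -0.76 to 1.08, edgeR adjusted p = 0.728) was too imprecise at 11 to 23 counts per library to show which fraction was higher. Amh encodes anti-Müllerian hormone, which Sertoli cells of the fetal testis secrete. It stood at 3.75, 8.11 and 3.26 CPM in germ cells and at 1.13, 0.775 and 1.03 CPM in somatic cells. The germ cell libraries were all higher, with a log2 difference of 2.36 ± 0.39 (SE, 5.15-fold, edgeR adjusted p = 4.46e-05). Amh begins 318 bases after the end of Sf3a2 on the same strand, and Sf3a2 held 1066 to 1275 counts in the somatic saline libraries and 1231 to 1746 in the germ cell saline libraries, against 57 to 139 counts for Amh in the latter. The part of reads from Sf3a2 in the Amh counts was not tested.

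**Figure D2:**
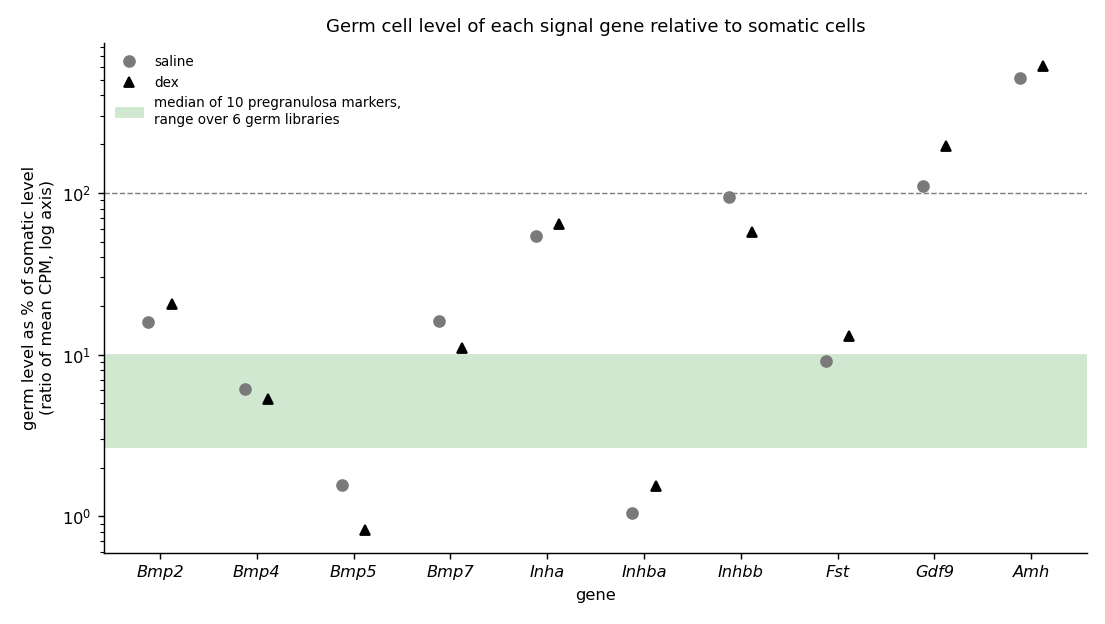
Germ cell level of each gene as a percentage of its somatic level (ratio of the mean CPM of 3 libraries each, log axis), for saline (circles) and dex (triangles), with a dashed line at equal levels and a green band for the median of 10 pregranulosa markers in the 6 germ cell libraries, 2.70% to 9.89% of the somatic saline level. Bmp5 and Inhba lie below the band and Bmp4 within it. Fst lies within the band after saline, at 9.14%, and above it after dex, at 13.0%. Amh, at 514% and 610%, lies above the dashed line. Other marker lists had other medians after saline (stromal 0.619%, endothelial 8.71%).

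Because the germ cell fraction can hold RNA of other cells, the germ cell levels were set beside those of pregranulosa cells. In the saline germ cell libraries the 10 pregranulosa markers lay at 1.82% to 10.97% of their somatic saline level, with a median of 4.52%. Inhba at 1.05% and Bmp5 at 1.56% lay under every one of these markers, Bmp4 at 6.14% and Fst at 9.14% lay among them, and Bmp2, Bmp7, Inha, Inhbb, Gdf9 and Amh lay above all of them. This placement depends on the marker list. After saline the 8 stromal markers lay at 0.576% to 7.37%, with a median of 0.619%, below Inhba and Bmp5. The 6 endothelial markers lay at 1.62% to 222%, with a median of 8.71%. The Fst level varied between germ cell libraries together with these markers. In germ dex replicate 1 Fst was at 2.35 CPM beside 2.55 CPM of Foxl2, 1.81 CPM of Wnt4 and 2.55 CPM of Rspo1. In germ dex replicate 2 Fst was at 10.2 CPM beside 20.0 CPM of Foxl2, 8.41 CPM of Wnt4 and 5.57 CPM of Rspo1. These were the lowest and the highest of the 6 germ cell libraries for Fst, and also for Foxl2. The part of somatic RNA in the germ cell levels was not tested.

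Within a group, levels of different genes were compared per gene length, in the FPKM that the authors deposited. Inha was the most abundant of the 10 in every group, at 16.1 ± 1.56 FPKM in somatic saline cells and 8.99 ± 0.521 FPKM in germ saline cells (SD, n = 3). In somatic saline cells Inha stood above Fst without overlap, and Fst (12.3 ± 1.13), Bmp4 (11.2 ± 0.372) and Bmp2 (11.1 ± 1.07 FPKM) followed with overlapping ranges. Bmp7, Inhba, Bmp5 and Inhbb came next at 10.2, 7.49, 4.93 and 3.45 FPKM, each separated from its neighbour, and Amh (0.569 FPKM) and Gdf9 (0.462 FPKM) came last with overlapping ranges. In germ saline cells the order after Inha was Inhbb (3.37 FPKM), Amh (3.04), Bmp2 (1.84), Bmp7 (1.72), Fst (1.18), Bmp4 (0.715), Gdf9 (0.532), Inhba (0.0820) and Bmp5 (0.0796 FPKM), and each neighbouring pair overlapped except Inha with Inhbb and Gdf9 with Inhba. After dex, Inhbb stood at 6.59 ± 0.417 FPKM in somatic cells and moved ahead of Bmp5, at 3.70 ± 0.933 FPKM, with no overlap between them.

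**Figure D3:**
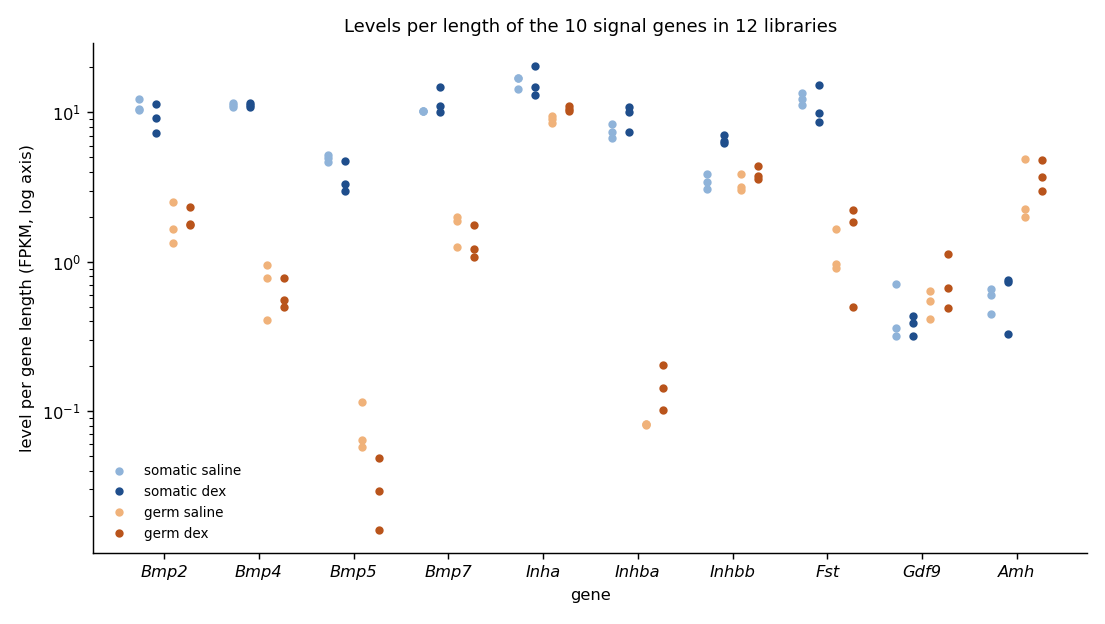
Level per gene length of each of the 10 genes in the 12 libraries (FPKM, log axis), with points for libraries coloured by group. Inha is highest in every group, and Inhba and Bmp5 are the lowest in germ cells, at 0.0820 and 0.0796 FPKM on average after saline.

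The second comparison asked which of the signals differed between dex and saline in somatic cells. Inhbb rose and was the only 1 of the 10 genes to pass the test. Across all 16556 genes tested 8.18% passed, 4.81% higher and 3.36% lower after dex, so that 1 of 10 was close to the share among all genes. The unadjusted p was under 0.05 for 3 of the 10 (Inhbb, Inhba and Bmp5), as it was for 20.9% of all genes tested. The median log2 fold change was 0.00 over the 10 genes and over all genes tested.

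Inhbb stood at 13.48, 14.98 and 17.01 CPM in the somatic saline libraries and at 31.0, 27.4 and 28.7 CPM in the somatic dex libraries. All 3 dex libraries were above all 3 saline libraries. The log2 fold change was 0.93 ± 0.12 (SE, 95% interval 0.68 to 1.19), or 1.91-fold, with an edgeR adjusted p of 0.000209. It kept its sign and passed the test with each of the 6 libraries left out in turn (log2 fold change 0.85 to 1.02) and with DESeq2. The germ cell level of Inhbb, 14.2 ± 1.80 CPM after saline and 16.7 ± 1.67 CPM after dex (SD, n = 3), was under the level of each dex somatic library. Of the 6 macrophage markers, 3 fell in the same somatic libraries (Adgre1, Csf1r and Mrc1), and the sum of all 6 macrophage markers lay between 161 and 223 CPM after saline and between 42.8 and 118 CPM after dex. The part of cell composition in the Inhbb difference was not tested.

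Inhba, the other beta subunit gene, stood at 54.8, 48.7 and 44.7 CPM after saline and at 71.4, 66.5 and 49.4 CPM after dex. Replicate 3 of the dex group lay within the saline range and the other dex libraries above it. The log2 fold change was 0.33 ± 0.12 (SE, 95% interval 0.07 to 0.59) and did not pass the test (edgeR adjusted p = 0.121). Without that replicate it was 0.48 with an edgeR adjusted p of 0.00133. That library was the farthest from the others of its group, so leaving it out narrows the spread by itself. Over all fits without 1 library the log2 fold change of Inhba ranged from 0.23 to 0.48, with adjusted p up to 0.377. Inha did not differ detectably: it stood at 21.7, 25.8 and 25.9 CPM after saline and at 19.8, 22.3 and 31.6 CPM after dex, with a log2 fold change of 0.00 ± 0.16 (SE, 95% interval -0.33 to 0.34, edgeR adjusted p = 0.997).

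Fst, the activin antagonist, stood at 53.0, 58.4 and 63.8 CPM after saline and at 41.1, 46.4 and 72.6 CPM after dex. Replicates 1 and 2 of the dex group were below every saline library and replicate 3 was above every one. The log2 fold change of -0.14 ± 0.16 (SE, 95% interval -0.48 to 0.21) did not pass the test (edgeR adjusted p = 0.697). Without replicate 3, the library farthest from the others of its group, it was -0.42 with an edgeR adjusted p of 0.00761. Over all fits without 1 library it ranged from -0.42 to 0.02, with adjusted p up to 0.959. Replicate 3 was also the dex library with the highest pregranulosa sum. Among the pregranulosa genes known to act with Fst in the female pathway, Wnt4, the only 1 of the 10 pregranulosa markers to pass, fell with a log2 fold change of -0.24 ± 0.06 (SE, edgeR adjusted p = 0.0373). Among all genes tested 8.18% passed, 3.36% of them lower after dex, so that 1 of 10 was close to the share among all genes. Whether the Wnt4 call was kept with single libraries left out is not given here. Rspo1 had a log2 fold change of -0.21 ± 0.07 (SE, edgeR adjusted p = 0.0771), and Foxl2 one of 0.02 ± 0.16 (SE, edgeR adjusted p = 0.956).

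Among the BMP genes, Bmp5 stood at 21.5, 20.5 and 19.4 CPM after saline and at 19.8, 13.8 and 12.6 CPM after dex. The dex libraries 2 and 3 were below all saline libraries and dex library 1 was within their range. The log2 fold change was -0.42 ± 0.15 (SE, 95% interval -0.75 to -0.08, edgeR adjusted p = 0.134), and without dex library 1 it was -0.63 with an adjusted p of 0.0156. Over all fits without 1 library it ranged from -0.63 to -0.29, with adjusted p up to 0.331. Bmp2 stood at 38.5, 38.1 and 45.1 CPM after saline and at 33.5, 26.5 and 42.2 CPM after dex, with overlapping groups. Its log2 fold change was -0.26 ± 0.14 (SE, 95% interval -0.55 to 0.04, edgeR adjusted p = 0.316), and without dex library 3 it was -0.44 with an adjusted p of 0.0165. Over all fits without 1 library it ranged from -0.44 to -0.12, with adjusted p up to 0.682.

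Bmp7 stood at 42.4, 42.2 and 42.5 CPM after saline and at 41.8, 45.6 and 61.7 CPM after dex, where replicate 3 was again the highest. Its log2 fold change was 0.23 ± 0.12 (SE, 95% interval -0.03 to 0.49, edgeR adjusted p = 0.311). Bmp4 had the narrowest interval of the 10 genes in somatic cells. It stood at 25.0, 26.9 and 25.9 CPM after saline and at 25.28, 25.94 and 27.03 CPM after dex, and its log2 fold change of 0.01 ± 0.10 (SE) had a 95% interval from -0.20 to 0.21 (edgeR adjusted p = 0.983). Gdf9 and Amh, at 10 to 23 counts per somatic library, had intervals from -1.31 to 0.76 and from -0.91 to 1.08. Changes within those intervals, in either direction, were not excluded at this depth.

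**Figure D4:**
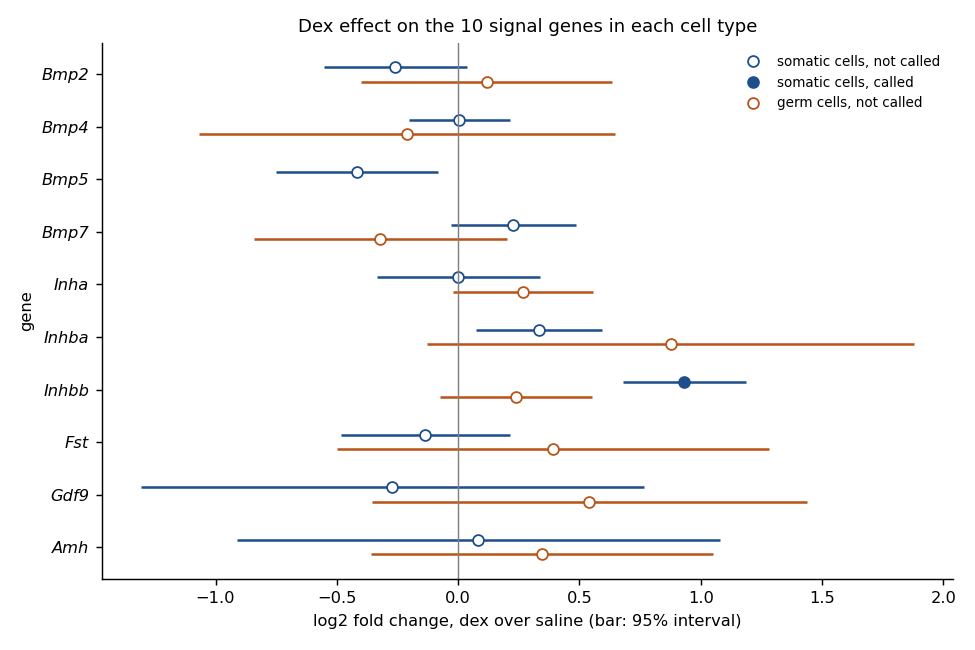
Log2 fold change of dex over saline for the 10 genes (points) with 95% intervals (bars) in somatic cells (blue) and germ cells (orange), where a filled point passed the test. Inhbb in somatic cells, at 0.93, is the only filled point, and Bmp5 has no germ cell point because its counts were too low to test.

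The same comparison in germ cells had lower counts for most of the genes. None of the 9 genes tested passed with edgeR, none had an unadjusted p under 0.05, and DESeq2 called 0 of them. Among all 16857 genes tested in germ cells 0.208% passed. Bmp5 did not enter the test: its dex libraries held 3, 1 and 2 counts, at or under the floor of 3, and its saline libraries 4, 8 and 4 counts.

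For 2 of the genes tested in germ cells, Inha and Inhba, the 3 dex libraries lay above the 3 saline libraries, as they did for 7.96% of all genes tested in germ cells, where 0.208% passed the test. Inha stood at 12.4, 14.0 and 13.0 CPM after saline and at 16.70, 15.54 and 14.94 CPM after dex, a log2 fold change of 0.27 ± 0.13 (SE, 95% interval -0.02 to 0.55, edgeR adjusted p = 0.478). Inhba stood at 0.518, 0.525 and 0.515 CPM after saline and at 0.939, 1.29 and 0.642 CPM after dex, a log2 fold change of 0.88 ± 0.46 (SE, edgeR adjusted p = 0.504). The counts behind Inhba were 8 to 9 after saline and 11 to 20 after dex. Inhbb stood at 13.46, 12.90 and 16.25 CPM after saline and at 16.4, 15.1 and 18.4 CPM after dex, with overlapping groups and a log2 fold change of 0.24 ± 0.14 (SE, 95% interval -0.08 to 0.55, edgeR adjusted p = 0.563).

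Amh, the only one of the 10 that was higher in germ cells, stood at 3.75, 8.11 and 3.26 CPM after saline and at 8.18, 4.92 and 6.07 CPM after dex, with overlapping groups and a log2 fold change of 0.34 ± 0.32 (SE, edgeR adjusted p = 0.719). Gdf9 stood at 0.841, 1.28 and 1.09 CPM after saline and at 2.35, 1.36 and 0.992 CPM after dex, also with overlap, and a log2 fold change of 0.54 ± 0.41 (SE, edgeR adjusted p = 0.649). Fst in germ cells spread more widely after dex (2.35, 10.2 and 8.35 CPM) than after saline (4.14, 4.44 and 7.44 CPM), and its log2 fold change of 0.39 had an SE of 0.41 (edgeR adjusted p = 0.747). The other BMP genes in germ cells had overlapping groups. Their log2 fold changes were 0.12 ± 0.24 for Bmp2, -0.21 ± 0.39 for Bmp4 and -0.32 ± 0.24 for Bmp7 (SE).

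To ask whether germ and somatic cells responded unequally to dex, the test was made on the log2 fold change in germ cells minus that in somatic cells over all 12 libraries. None of the 10 genes passed with edgeR, against 1.62% of the 19390 genes tested. An unadjusted p under 0.05 was found for 2991 of those 19390 genes and for 1 of the 10. That gene was Inhbb, with a difference of -0.71 ± 0.19 (SE, 95% interval -1.11 to -0.31, edgeR adjusted p = 0.0756). DESeq2 gave -0.72 with an adjusted p of 0.02 for Inhbb and so called 1 of the 10. For Inhbb the call of a difference between the cell types therefore depended on the tool. The next smallest adjusted p was that of Bmp7, whose difference was -0.56 ± 0.27 (SE, edgeR adjusted p = 0.326).

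The rest of the pathway was read from 6 lists of 81 genes that did not hold the 10 above: other ligands, receptors and co-receptors, SMAD transducers, extracellular antagonists, BMP target genes, and genes for ligand processing and matrix storage. In somatic cells 63 of the 81 were tested, and 13 rose and 6 fell after dex, where 4.81% and 3.36% of all genes tested did so. The lists were chosen with earlier results of these data known, so this contrast is no test of the pathway. With single libraries left out the number called ranged from 11 to 23, and it was 11 without dex replicate 2 or saline replicate 3 and 12 without saline replicate 2. The share of all genes called in those fits is not given here, so the range cannot be set against it. Of the 19 genes, 10 were called whichever library was left out (Bmp6, Gdf10, Acvrl1, Tgfbr3, Smad9, Nog, Twsg1, Nbl1, Id4 and Bambi). In germ cells 0 of 60 passed with edgeR, where 0.208% of all genes tested did. The unadjusted p was under 0.05 for 8 of the 60, and for 11.6% of all genes tested. In the same somatic libraries 1 of 8 stromal markers rose after dex (Pdgfra, log2 fold change 0.62). Of 6 perivascular markers 1 rose (Cspg4, 1.06) and 1 fell (Mcam, -0.45). Of 6 endothelial markers 1 rose (Emcn, 0.43) and 1 fell (Cdh5, -0.50), but 5 were below 0, with a median of -0.36. Of 6 macrophage markers 3 fell and all 6 were below 0, with a median of -0.97. Of 4 Sertoli markers tested 1 rose (Cyp26b1), and of 10 pregranulosa markers 1 fell (Wnt4). None passed of the 5 steroidogenic, 6 surface epithelium, 6 mesonephric and 6 erythroid markers tested. The unadjusted p was under 0.05 for 5 endothelial and 6 macrophage markers. Among all genes tested 8.18% passed, and 20.9% had an unadjusted p under 0.05. The part of cell composition in the pathway counts was not tested.

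Among the other ligands, 3 of 10 tested rose in somatic cells, against 4.81% of all genes tested. Bmp6, a close relative of Bmp5 and Bmp7, stood at 23.4 to 27.7 CPM in the saline libraries and at 53.7 to 58.7 CPM in the dex libraries. The groups were far apart, with a log2 fold change of 1.14 ± 0.09 (SE, 2.20-fold, edgeR adjusted p = 3.38e-06), the largest rise on the 6 lists. Germ cells held 1.58 ± 0.235 CPM of Bmp6 after saline and 2.90 ± 0.285 CPM after dex (SD, n = 3), which did not pass (edgeR adjusted p = 0.275). Gdf10, also called BMP3B, rose by 0.66 ± 0.09 on the log2 scale (SE, edgeR adjusted p = 0.000348), and Tgfb2, a TGF-beta ligand, by 0.28 ± 0.07 (SE, edgeR adjusted p = 0.0206). The call of Tgfb2 was lost without replicate 2 of either group or without saline replicate 3.

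Among the receptors and co-receptors, 3 of 16 tested rose in somatic cells, against 4.81% of all genes tested. They were Tgfbr3 (betaglycan, a co-receptor of inhibin and TGF-beta) with a log2 fold change of 0.71 ± 0.07, Acvrl1 (ALK1, an endothelial type I receptor) with 0.57 ± 0.08, and Bmpr2 (a BMP type II receptor) with 0.25 ± 0.06 (SE, edgeR adjusted p = 2.24e-05, 0.000615 and 0.0223). The call of Bmpr2 was lost without dex replicate 2 or any 1 of the saline libraries (highest adjusted p 0.0992). Tgfbr3 averaged 134 ± 9.50 CPM after saline and 220 ± 10.3 CPM after dex (SD, n = 3). The BMP type I receptors Bmpr1a, Bmpr1b and Acvr1 did not pass, with log2 fold changes of 0.12 ± 0.06, 0.27 ± 0.15 and -0.11 ± 0.07 (SE). Neither did the activin type II receptors Acvr2a and Acvr2b, at 0.05 ± 0.09 and -0.23 ± 0.13 (SE), nor the AMH receptor gene Amhr2, at -0.30 ± 0.16 (SE, edgeR adjusted p = 0.330). Amhr2 was called without dex replicate 3, at -0.58 with an edgeR adjusted p of 0.000433. Over all fits without 1 library it ranged from -0.58 to -0.18, with adjusted p up to 0.663.

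Of the 16 receptor and co-receptor genes tested between the fractions after saline, 4 were higher in germ cells (Bmpr2, Acvr2a, Acvr2b and Tgfbr1) and 9 were lower, where 86.1% of all genes tested passed in either direction. The median log2 difference over the 16 genes was -1.22. In saline libraries Acvr2b was 2.59-fold, Acvr2a 1.63-fold and Bmpr2 1.34-fold higher in germ cells, and all 3 passed the test. Bmpr1a did not pass, with 187 ± 19.9 CPM in germ cells against 198 ± 7.97 CPM in the soma (SD, n = 3). Amhr2 was 22.2-fold, Acvr1 6.197-fold and Bmpr1b 3.02-fold lower in germ cells, and these also passed. In germ cells Bmpr1b averaged 5.55 ± 0.976 CPM after saline and 3.47 ± 0.510 CPM after dex (SD, n = 3) without overlap, but the log2 fold change, -0.66 ± 0.22 (SE), did not pass the test (edgeR adjusted p = 0.292).

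Of the 6 SMAD genes, Smad9 averaged 9.62 ± 0.341 CPM after saline and 15.7 ± 1.02 CPM after dex in somatic cells (SD, n = 3), and this rise of 0.70 ± 0.13 on the log2 scale passed the test (SE, edgeR adjusted p = 0.00424). Smad2, of the activin branch, fell with a log2 fold change of -0.30 ± 0.08 (SE, edgeR adjusted p = 0.0344), a call that was kept only when dex replicate 1 was the library left out. The common SMAD gene Smad4 and the BMP branch genes Smad1 and Smad5 did not pass, at 0.01 ± 0.08, -0.08 ± 0.08 and -0.17 ± 0.08 (SE). Smad5 passed without dex replicate 3, at -0.26 with an edgeR adjusted p of 0.0133. Over all fits without 1 library it ranged from -0.26 to -0.11, with adjusted p up to 0.505.

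The extracellular antagonists moved in opposite directions, with 4 of 12 tested higher and 2 lower in somatic cells after dex, against 4.81% and 3.36% of all genes tested. Nog (noggin, which sequesters BMPs) stood at 4.13 to 7.05 CPM after saline and at 10.72 to 12.03 CPM after dex, a log2 fold change of 0.92 ± 0.20 (SE, edgeR adjusted p = 0.0103). Twsg1 (twisted gastrulation, a modulator of BMP binding) and Nbl1 (a DAN family BMP antagonist) rose by 0.62 ± 0.07 and 0.61 ± 0.07 on the log2 scale (SE, edgeR adjusted p = 5.96e-05 and 8.64e-05), and Wfikkn2, an antagonist of myostatin, rose by 0.49 ± 0.13 (SE, edgeR adjusted p = 0.0376) with overlapping groups. Sostdc1, another BMP antagonist, fell: it stood at 7.96 to 10.8 CPM after saline and at 4.40 to 5.42 CPM after dex, a log2 fold change of -0.85 ± 0.19 (SE, edgeR adjusted p = 0.013). Bmper, whose product binds BMPs in the extracellular matrix, fell with a log2 fold change of -0.50 ± 0.12 (SE, edgeR adjusted p = 0.0224). The call of Sostdc1 was lost without dex replicate 2 or saline replicate 1 (highest adjusted p 0.0832), that of Bmper without replicate 1 of either group or saline replicate 3, and that of Wfikkn2 without dex replicate 1 or 2 or saline replicate 2 or 3.

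The list of BMP target genes was also divided, with 2 of 10 higher and 3 lower in somatic cells, against 4.81% and 3.36% of all genes tested. Msx2, a homeobox gene, rose with a log2 fold change of 0.96 ± 0.22 and Bambi, a decoy receptor gene, with 0.62 ± 0.09 (SE, edgeR adjusted p = 0.0176 and 0.00049). The Id genes encode inhibitors of helix-loop-helix factors, and 3 of the 4 fell. Id4 stood at 40.9 to 43.3 CPM after saline and at 26.4 to 28.8 CPM after dex, a log2 fold change of -0.61 ± 0.09 (SE, edgeR adjusted p = 0.000508). Id1 and Id3 fell with log2 fold changes of -0.30 ± 0.07 and -0.24 ± 0.06 (SE, edgeR adjusted p = 0.0199 and 0.0291), and Id2 had one of -0.13 ± 0.07 (SE, edgeR adjusted p = 0.348). The calls of Msx2, Id1 and Id3 were each lost without dex replicate 1 or 2 or saline replicate 2 or 3 (highest adjusted p 0.0906, 0.0854 and 0.107). In germ cells after dex the 4 Id genes had log2 fold changes between -0.03 and 0.05. None of the 9 genes for ligand processing and matrix storage passed in somatic cells with edgeR, and 1 had an unadjusted p under 0.05.

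**Figure D5:**
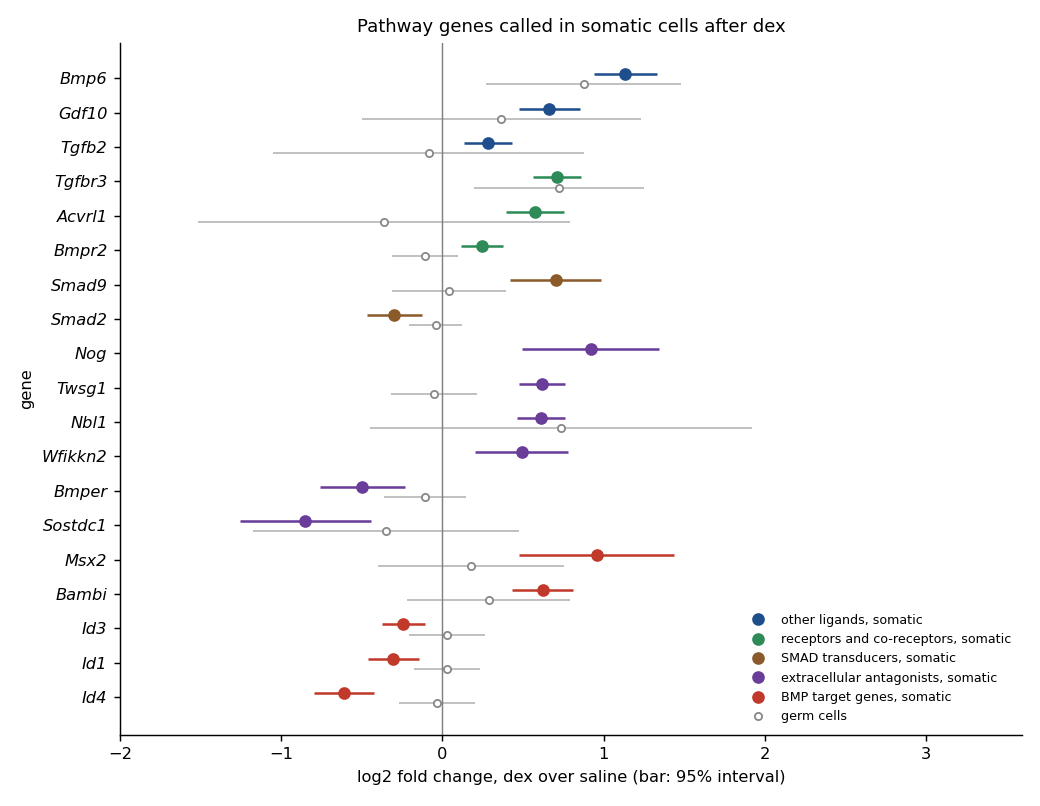
Log2 fold change of dex over saline, with 95% intervals, for the 19 genes of the pathway lists that passed the test in somatic cells (coloured by list), with the same genes in germ cells in grey where they could be tested. Bmp6 at 1.14 is the highest and Sostdc1 at -0.85 the lowest in somatic cells, and none of the grey points passed the test.

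The test of the difference between the cell types called 2 of 67 pathway genes, against 1.62% of all genes tested. For Id4 the difference (germ minus somatic) was 0.57 ± 0.14 (SE, edgeR adjusted p = 0.0495) and for Twsg1 -0.68 ± 0.14 (SE, edgeR adjusted p = 0.0164). The call of Id4 was lost in 11 of the 12 fits without 1 library (all except the one without germ saline replicate 1), and that of Twsg1 without germ saline replicate 3 or somatic dex replicate 2 (adjusted p 0.0702 and 0.0527). For the other 17 genes called in somatic cells a difference from germ cells was not shown.

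For each of the 10 genes, the genes with the most similar profile over the 12 libraries were listed by Pearson's r of log2 CPM among 16151 genes, as a description. For most of them r mainly reflects the gap between the fractions, which the majority of genes share. Inhbb, which has no such gap after saline, was most like Zbtb16 (r = 0.951) and Klhl2 (r = 0.943). Fst was most like Clu (r = 0.998) and Wnt6 (r = 0.996), and Amh like 4732416N19Rik (r = 0.981) and Cdadc1 (r = 0.979). Inha had its highest values with Gm10052 (r = 0.9752) and Zdhhc16 (r = 0.963), and Gdf9 with Gm9905 (r = 0.885) and Rtel1 (r = 0.879). The 5 somatic genes Bmp2, Bmp4, Bmp5, Bmp7 and Inhba all had partners above 0.99, such as Htra1 for Bmp4 and Cald1 for Inhba (r = 0.999 for both).

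The annotation bears on some of these counts, since whether counting used strand is not given in the sources used here. In GRCm38, Bmp4 (chr14:46383520-46390669) overlaps the antisense gene Gm15222, which held 23 to 48 counts in somatic and 7 to 17 in germ cell libraries, the latter near the counts of Bmp4 itself in germ cells, 14 to 37. Bmp5 (chr9:75775364-75900310), Inhba and Fst (chr13:114452290-114458951) overlap genes with at most 13 counts in any library. For Inhba in germ cells these were not negligible, since the overlapping pseudogene B230303A05Rik held 1 to 9 counts in the dex libraries and 0 to 3 in the saline libraries. Bmp2 (chr2:133552159-133562885), Bmp7 (chr2:172868012-172940321), Inha (chr1:75507077-75510366), Inhbb, Gdf9 (chr11:53431023-53437904) and Amh (chr10:80805243-80807648) overlap no other annotated gene.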

How the data were processed

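RNA from sorted germ and somatic cells of E15.5 ovaries was measured in 12 poly-A libraries, 3 per group. Per the labels, reads were aligned to mm10 with HISAT2 2.0.5 and counted per gene with featureCounts 1.5.0-p3. The authors deposited raw counts and FPKM, the latter computed from counts, gene length and depth. The authors' own comparison tables (fold changes and p-values from DESeq2 1.20.0) were not used. Handling of reads with several matches is not given in the sources used here.

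Counts were tested with edgeR 4.0.16 in R 4.3.3 (quasi-likelihood test, TMM scaling, filterByExpr, Benjamini-Hochberg adjustment over all genes tested, threshold 0.05, no fold minimum), checked beforehand on simulated data. Dex was compared with saline within each cell type from the libraries of that cell type, and the difference of the dex effects over all 12. Standard errors follow from the F statistic, and intervals are 95%. Floors cover counting error only. P-values measure the spread between litter pools. Alternatives were DESeq2 1.42.0, RLE size factors, no low-count filter, a replicate block and each library left out.

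The 10 genes, the pathway and marker lists and the tests were chosen with earlier results of these data known. Named pathway genes were a fixed set of receptors, SMADs and Id genes, and in each dex test the called genes, up to the 12 largest changes with a mean of at least 1 CPM. The remaining called genes of the lists (Tgfb2, Wfikkn2, Smad2 and Bmper) were named after their values were seen.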

Additional observations from a re-analysis of the deposited data

Results flagged for a closer look

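In the test of the difference between the dex effects of the cell types, Twsg1, a modulator of BMP binding, had a difference (germ minus somatic) of -0.68 on the log2 scale. Its level was 349 ± 5.47 CPM in somatic saline and 535 ± 34.9 CPM in somatic dex libraries, and 31.7 ± 2.68 and 30.4 ± 4.78 CPM in germ cells (SD, n = 3). Id4, a BMP target gene, had a difference of 0.57. Its level was 42.3 ± 1.28 CPM in somatic saline and 27.7 ± 1.25 CPM in somatic dex libraries, and 28.4 ± 3.22 and 27.6 ± 1.30 CPM in germ cells (SD, n = 3). Both genes were singled out because the difference itself passed the test. The call of Id4 was lost in 11 of the 12 fits that left out 1 library, and that of Twsg1 without germ saline replicate 3 or somatic dex replicate 2.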

How the results depend on the processing

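Inhbb in somatic cells after dex passed the test under every alternative run (log2 fold change 0.85 to 1.02), as did the same 8 genes in the comparison of germ with somatic cells after saline. The number of the 10 genes called in somatic cells after dex was 1, but 3 without the low-count filter (Bmp5, Inhba and Inhbb) and 1 to 4 with single libraries left out, where removal of dex replicate 1 added Bmp5 and removal of dex replicate 3 added Bmp2, Inhba and Fst. In the difference between cell types it was 0 with edgeR and 1 with DESeq2. For the pathway genes, the count in somatic cells was 19 and ranged from 11 to 23 with libraries left out. In germ cells it was 0, but 2 without the low-count filter and 0 to 2 with libraries left out, where removal of dex replicate 1 gave the 2. In the difference it was 2, but 4 with DESeq2, 1 with RLE size factors, 5 without the filter and 0 to 3 with libraries left out, where 0 came without germ saline replicate 3 or somatic dex replicate 2. Shares over all genes are given here for the main fits only, so the counts under the alternatives have no share beside them. The causes were not tested.

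The replicate numbers were not used as pairs, because same-numbered dex and saline libraries deviated together only in part (r = 0.326, 0.0992 and 0.0758 in germ cells and 0.103, -0.0355 and -0.0679 in somatic cells over 10720 genes). Same-numbered germ and somatic libraries had r = 0.128, 0.0719 and 0.162 after dex and 0.137, 0.0395 and 0.112 after saline, not all above 0.1, and the labels do not say that they came from the same pool of ovaries. With the replicate block, 2 of the 10 genes were called in somatic cells (Inhba and Inhbb) and 1 pathway gene in the difference (Twsg1), and the block left 8 of the 10 genes called between germ and somatic cells after saline and 0 of the 10 in the difference.

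The values that changed sign had not passed the test, and did not pass it with the sign changed. In somatic cells after dex, Bmp4 was -0.00409 without the low-count filter, and Inha was -0.00367 with DESeq2, -0.00249 with RLE size factors, -0.00869 without the filter and -0.0176 with the replicate block. With libraries left out, the log2 fold changes in somatic cells ranged from -0.0276 to 0.0334 for Bmp4, -0.22 to 0.13 for Inha, -0.42 to 0.0221 for Fst, -0.49 to 0.17 for Gdf9, -0.11 to 0.37 for Amh, -0.0282 to 0.12 for Acvr2a and -0.0669 to 0.0780 for Smad4. In germ cells they ranged from -0.0638 to 0.40 for Bmp2 and -0.48 to 0.0461 for Bmp4. For the difference they ranged from -0.50 to 0.0336 for Bmp4 and -0.0396 to 0.78 for Amh, and for germ against somatic cells after saline from -0.0576 to 0.58 for Gdf9.

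Depth limits the germ cell results for Bmp4, Bmp5, Inhba and Gdf9, which held at most 37 counts in any germ cell library.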
